A study of Mus musculus with 8 samples.

Results

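Expression of 10 immediate early transcription factor genes was examined in cells from the kidneys of p16-tdTomato mice, which had chronic kidney disease (CKD) brought on by adenine-rich feeding. The genes were taken by symbol from the deposited count table, in which all 10 of the 10 were found among 25240 symbols: Fos, Fosb, Fosl1, Fosl2, Jun, Junb, Jund, Atf3, Egr1 and Nr4a1. They were chosen by family and not by their values, though with earlier results of these data known. All 10 were kept by the filter on low counts, along with 14284 genes in all. The libraries were 4 of Tomato-positive and 4 of Tomato-negative cells. All 8 came from mice of the same p16-tdTomato genotype, on the same disease treatment, so no healthy kidney is part of the comparison. Each of the identifiers CKD627_1, CKD627_2, CKD523_2 and CKD523_3 in the sample titles named 1 Tomato-positive and 1 Tomato-negative library. What the identifiers and their prefixes stand for is not given by the labels, nor is the age of the mice, the make of the reporter, or how the cells were freed and sorted. No label ties the libraries to separate animals, so the p-values speak only of the spread among these 8 libraries, which may be technical.

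Immediate early genes are transcribed within minutes of a growth factor, cytokine or stress signal, without new protein having to be made first. Their products are mostly transcription factors. Fos and Jun proteins pair through leucine zippers to form AP-1, a dimer that binds the DNA letters TGANTCA. Jun proteins can also pair with ATF proteins, and such dimers prefer TGACGTCA. Egr1 is a zinc finger factor, and Nr4a1 (Nur77) is an orphan nuclear receptor. In the kidney tubule several of these genes are known to be induced by injury, and the family is also known to be induced when tissue is taken apart into single cells.

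Promoters of immediate early genes hold binding sites for factors that signals act on directly. Promoter windows of 300 bases, from 250 before to 50 after the start, were taken from RefSeq (GRCm38.p6) and matched 8 of the 10 genes. The start used for a window is not always the gene start at the positions given below. The Nr4a1, Fosl2 and Atf3 windows lie wholly inside their genes, and the Jund window (chr8:70697489-70697788) ends before the gene begins. The letters TGACG, the core of a site for the factor CREB and its ATF relatives, were searched on both strands. They stood in 5 of the 8 windows, those of Fos, Fosb, Junb, Atf3 and Nr4a1, against 20.9% of 32544 mouse promoter windows and 29.3% of the windows of genes tested here. The 4 windows below belong to genes whose level differed between the Tomato groups in the paired fit described below: 3 that hold the motif and 1, that of Fosl2, that holds none. Capitals mark TGACG, or CGTCA where the motif lies on the other strand. The windows are chr12:85473640-85473939 (plus strand) for Fos, chr7:19309996-19310295 (minus strand) for Fosb, chr15:101266596-101266895 (plus strand) for Nr4a1 and chr5:32136222-32136521 (plus strand) for Fosl2.
Fos: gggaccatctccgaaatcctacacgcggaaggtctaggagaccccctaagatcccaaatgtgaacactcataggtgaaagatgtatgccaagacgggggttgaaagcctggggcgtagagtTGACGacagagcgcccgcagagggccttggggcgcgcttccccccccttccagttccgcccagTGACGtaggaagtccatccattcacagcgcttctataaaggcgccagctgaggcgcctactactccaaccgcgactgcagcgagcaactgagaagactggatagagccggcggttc
Fosb: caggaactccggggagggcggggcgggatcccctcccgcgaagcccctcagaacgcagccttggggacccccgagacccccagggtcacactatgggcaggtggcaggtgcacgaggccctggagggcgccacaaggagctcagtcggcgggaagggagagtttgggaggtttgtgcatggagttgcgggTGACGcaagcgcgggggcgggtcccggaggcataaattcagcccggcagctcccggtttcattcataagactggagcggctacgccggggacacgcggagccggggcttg
Nr4a1: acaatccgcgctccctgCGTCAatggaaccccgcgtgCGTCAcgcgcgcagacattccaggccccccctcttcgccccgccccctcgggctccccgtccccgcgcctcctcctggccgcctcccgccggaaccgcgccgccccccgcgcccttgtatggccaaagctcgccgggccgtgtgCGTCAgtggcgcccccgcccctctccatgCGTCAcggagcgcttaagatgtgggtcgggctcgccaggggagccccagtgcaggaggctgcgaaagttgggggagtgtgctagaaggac
Fosl2: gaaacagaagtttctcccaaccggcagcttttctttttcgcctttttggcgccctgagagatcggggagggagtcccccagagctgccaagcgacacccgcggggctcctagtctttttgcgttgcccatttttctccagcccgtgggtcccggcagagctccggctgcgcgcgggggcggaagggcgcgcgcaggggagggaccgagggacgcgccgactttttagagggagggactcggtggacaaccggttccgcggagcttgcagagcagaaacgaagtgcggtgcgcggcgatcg
In the Fos window the motif began at -129 and -66 bases from the start, in that of Fosb at -60, and in that of Nr4a1 at -233, -213, -69 and -40. The full palindrome TGACGTCA, which holds TGACG within it, was in 0 of the 8 windows. It was in 1.8% of all windows and 2.83% of those of tested genes. The AP-1 letters TGANTCA were in 0 of the 8, against 7.79% of all and 5.38% of those of tested genes. The CArG box, the site of serum response factor, was also in 0 of the 8, against 1.64 and 1.29%. The letters TATAAA of a TATA box were in 2 of the 8, those of Fos and Junb, against 13.6 and 7.5%. These are matches of letters within the windows only, so sites outside them are not seen, and Egr1 and Fosl1 had no window. For TGACGTCA, TGANTCA and the CArG box the share of all windows is so low that 0 of 8 does not set these genes apart.

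Total counts ranged from 13474439 to 19886202 per library, so 1 CPM (a count divided by the library total and brought to the usual common scale) was worth 13.5 to 19.9 counts, and the 10 genes had between 51 and 78974 counts each. The reporter separated the groups, with 3167 to 4143 CPM of tdTomato in Tomato-positive and 79.5 to 159 CPM in Tomato-negative libraries. In each pair the Tomato-positive library had fewer genes detected (15008 to 15838, against 16054 to 17043). The labels call all cells proximal tubular epithelial cells. All 21 proximal tubule markers were detected, with a summed level of 6349.5 to 17456 CPM in Tomato-positive and 9125 to 35712 CPM in Tomato-negative libraries, but markers of other nephron segments were abundant as well. Those of collecting duct principal cells summed to 1018 to 5648 CPM in Tomato-positive and 217 to 2461 CPM in Tomato-negative libraries, and those of the loop of Henle to 1802 to 7346 CPM and 3899.5 to 14962 CPM. In bulk samples, fewer cells of a type and less RNA per cell cannot be told apart.

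The 10 genes together made up 1.55, 1.62, 1.92 and 1.91% of all counts in the Tomato-positive libraries CKD627_1, CKD627_2, CKD523_2 and CKD523_3. In the Tomato-negative libraries of the same identifiers they made up 1.25, 1.18, 1.07 and 1.06%. The groups did not overlap, and the gap was wider in the CKD523 pairs. Values per library are given below in this order of identifiers.

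**Figure D1:**
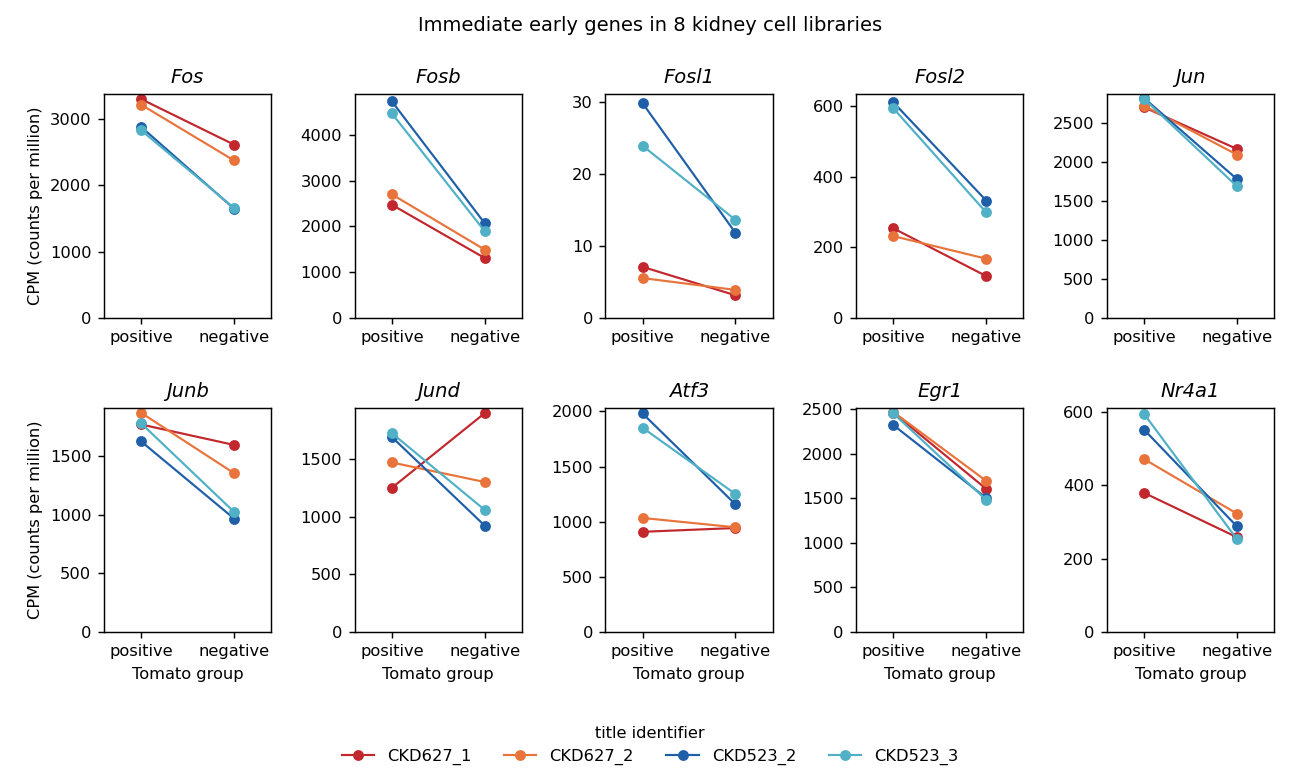
Level of each of the 10 genes in CPM, counts scaled to the library total (vertical axis, starting at 0) in Tomato-positive and Tomato-negative libraries; a line joins the 2 libraries that share an identifier. Every line slopes down towards the Tomato-negative library for 8 genes, while for Jund and Atf3 the CKD627_1 line slopes up, to 1899.8 and 942 CPM.

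Tomato-positive was compared with Tomato-negative in 2 fits over all 14284 genes with edgeR's quasi-likelihood test, with p-values adjusted by Benjamini-Hochberg and a threshold of 0.05. The unpaired fit took the 4 libraries of each group as they were, and the paired fit added the identifier as a block. In the unpaired fit 0 of the 10 genes passed, against a background of 0.595% of all tested genes called in either direction. At an unadjusted p under 0.05 it held 6 of them as higher, against 8.86% of all tested genes. Without the block, DESeq2 called 6 higher against a background of 3.38%, and limma-voom called 0 against 0.644%. In the paired fit 6 of the 10 rose, Fos, Fosb, Fosl1, Fosl2, Egr1 and Nr4a1, and 0 fell, against a background of 3.82% called higher and 3.81% called lower. The median log2 difference of the 10 was 0.57 in the paired fit, where that of all tested genes was 0.0056. With the prefix as a covariate in place of the identifier 8 of the 10 rose, against a background of 5.38%. The number of calls thus depended on the model and the tool, while all 10 log2 differences were positive in the unpaired and the paired fit. It also moved with the pairs kept. Without the pair CKD523_2, CKD523_3, CKD627_1 or CKD627_2 the paired fit called 1, 1, 7 and 2 of the 10, where it called 1.86, 0.702, 4.6 and 1.31% of all tested genes higher. Fosb was called in each of these 4 fits.

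**Figure D2:**
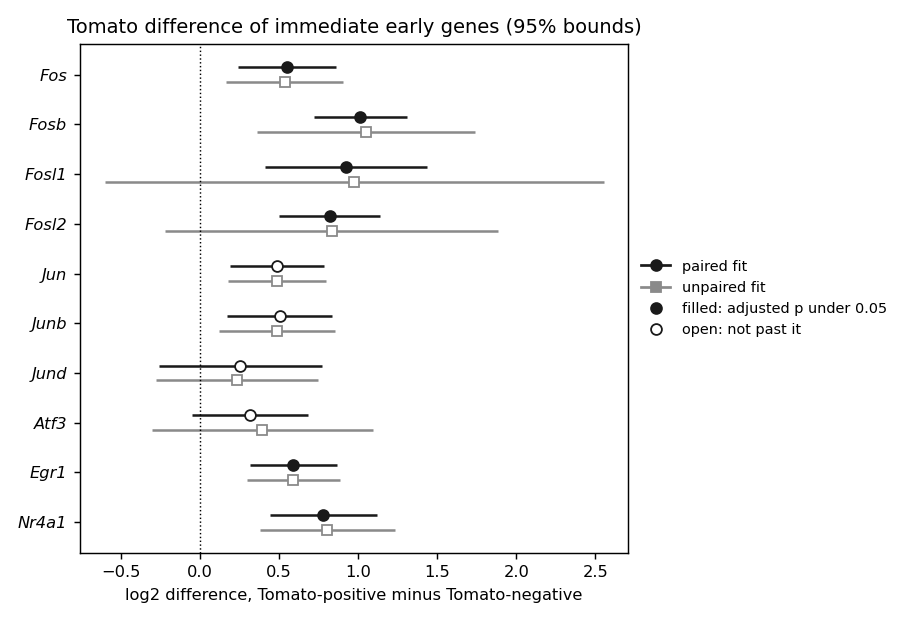
Log2 difference of each gene, Tomato-positive minus Tomato-negative (horizontal axis), with 95% bounds, in the paired fit (black circles) and the unpaired fit (grey squares), filled where the adjusted p was under 0.05. All 20 points lie right of 0, and 6 of the 10 circles but 0 of the 10 squares are filled.

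Fos encodes the founding partner of AP-1 and lies at chr12:85473890-85477273 on the plus strand (GRCm38, as are all positions given here), with 4 exons. Its level was 3303, 3219, 2883 and 2832 CPM in Tomato-positive libraries, against 2616, 2377, 1649.5 and 1660.1 CPM in Tomato-negative ones. Every Tomato-positive library stood above every Tomato-negative one, and the Tomato-negative libraries of CKD627 were the closest to them. The means were 3059 ± 236 and 2076 ± 496 CPM (SD, n = 4 each). Fos rose by 0.55 ± 0.14 (log2, SE) with the block, a fold of 1.46 (edgeR, adjusted p = 0.0435). This call was close to the threshold: it was lost with upper-quartile scaling (adjusted p = 0.0671) and with robust dispersions (0.0534). In the unpaired fit the adjusted p was 0.149.

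Fosb, at chr7:19302696-19310051 on the minus strand, encodes a second full-length Fos protein, known for its long-lived splice form in brain. It had the largest log2 difference of the 10 in both fits. Its level was 2470.0, 2698, 4727 and 4466 CPM in Tomato-positive libraries, against 1306, 1489.9, 2066 and 1893 CPM in Tomato-negative ones. The groups did not overlap, and within each group the CKD523 libraries were the higher. In the paired fit Fosb rose 2.02-fold, by 1.01 ± 0.13 on the log2 scale (95% bounds 0.72 to 1.31, adjusted p = 0.00443). In the unpaired fit the same difference, 1.05 ± 0.31, had an adjusted p of 0.130.

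Fosl1 and Fosl2 encode Fra-1 and Fra-2, Fos relatives that lack the strong activating end of Fos and come up later in many cells. Fosl1 (chr19:5447547-5455946, plus strand) was the rarest of the 10, with 7.09, 5.53, 29.8 and 23.9 CPM in Tomato-positive libraries and 3.14, 3.88, 11.8 and 13.6 CPM in Tomato-negative ones. Here the groups overlapped, since the CKD523 libraries of both groups lay above those of CKD627, but each Tomato-positive library was above its partner. Fosl1 rose 1.89-fold in the paired fit (log2 0.92 ± 0.23, adjusted p = 0.0426), a call that was lost without any 1 of the 4 pairs (adjusted p of 0.0554 to 0.183). The span of the gene Ccdc85b, introns included, overlaps that of Fosl1 on the other strand. Ccdc85b had 31.7 ± 6.46 CPM in Tomato-positive and 30.0 ± 9.51 CPM in Tomato-negative libraries (SD, n = 4 each). The strand setting of the counting is not given, so it is not known how reads from the shared stretch were assigned. Fosl2 (chr5:32135801-32157842, plus strand) had 254, 232, 612 and 595 CPM in Tomato-positive libraries and 119, 168, 333 and 299 CPM in Tomato-negative ones. Its groups overlapped in the same way, and in the paired fit it rose 1.77-fold (log2 0.82 ± 0.14, adjusted p = 0.0130), a call that was lost without the pair CKD523_2 or CKD523_3 (adjusted p = 0.0533 and 0.0837). In the unpaired fit, where the distance between prefixes counts as spread, the SE was 0.70 for Fosl1 and 0.47 for Fosl2, and the adjusted p was 0.497 and 0.384.

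The Jun family supplies the other side of the AP-1 dimer, and its 3 genes have a single exon each. None of the 3 passed the threshold in either fit. Jun (chr4:95049034-95052222, minus strand) had 2695, 2715, 2814 and 2803 CPM in Tomato-positive libraries, against 2162, 2089.7, 1776 and 1685 CPM in Tomato-negative ones. The groups did not overlap, and the Tomato-positive libraries were close together, with an SD of 60.5 CPM around a mean of 2757. The log2 difference was 0.48 ± 0.13 in the paired fit (95% bounds 0.19 to 0.78, adjusted p = 0.0598) and 0.49 ± 0.14 in the unpaired fit (adjusted p = 0.124). Junb, which often restrains Jun, lies at chr8:84974484-84978718 on the minus strand. It had 1769, 1868, 1625 and 1779 CPM in Tomato-positive libraries and 1595, 1354, 967 and 1023 CPM in Tomato-negative ones, again without overlap. Its log2 difference in the paired fit was 0.50 ± 0.15 (95% bounds 0.17 to 0.83, adjusted p = 0.0743). Both Jun and Junb passed in the paired fit when the pair CKD627_1 was left out (adjusted p = 0.0419 and 0.0246). Jun passed in the paired fit of all 4 pairs with scaling by library size only (0.0476). In DESeq2 both passed with the block (adjusted p = 0.00729 and 0.0161) and without it (0.000597 and 0.0411). Both also passed in edgeR with the prefix as a covariate (0.0171 and 0.0301). In limma-voom with the block Jun passed (0.0409) and Junb did not (0.0508). Without the block neither passed in limma-voom (0.0997 and 0.144). Prdx2, a peroxide-removing enzyme, lies over Junb on the other strand and had 216 ± 10.1 CPM in Tomato-positive and 310.4 ± 135 CPM in Tomato-negative libraries (SD, n = 4 each), and the antisense gene Junos lies over Jun. With an unstated strand setting it is not known how reads from the stretches shared with these partners were assigned.

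Jund (chr8:70698949-70700616, plus strand) is known as the steadily expressed member of the Jun family. It had 1251, 1471, 1693 and 1726 CPM in Tomato-positive libraries, against 1899.8, 1301, 923 and 1059 CPM in Tomato-negative ones. The highest of all 8 values was in a Tomato-negative library, that of CKD627_1, so the groups overlapped. Its log2 difference was 0.25 ± 0.23 in the paired fit (95% bounds -0.26 to 0.77, adjusted p = 0.530). Without the pair CKD523_2, CKD523_3 or CKD627_1 it was 0.05, 0.11 and 0.54. Atf3 (chr1:191170296-191218039, minus strand) encodes a stress-induced ATF protein that pairs with Jun proteins and can repress. Its levels were 908, 1033, 1982 and 1852 CPM in Tomato-positive libraries and 942, 949, 1157 and 1251 CPM in Tomato-negative ones. The CKD523 libraries differed by group, while those of CKD627 lay within a narrow band. The paired log2 difference of Atf3 was 0.31 ± 0.16 (95% bounds -0.05 to 0.68, adjusted p = 0.266), and 0.17 without the pair CKD523_2. Gm11175 lies over Jund and Gm24748 over Atf3, both on the other strand, with the same limit on reads from the shared stretches.

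Egr1, on chromosome 18, encodes an early responder to growth factors and injury. Its levels were 2465, 2472, 2325 and 2456 CPM in Tomato-positive libraries, against 1607, 1697, 1505 and 1484 CPM in Tomato-negative ones, without overlap. It rose 1.5-fold in the paired fit (log2 0.59 ± 0.12, adjusted p = 0.0242) and had the smallest adjusted p of the 10 in the unpaired fit (0.0712). Nr4a1 (chr15:101254269-101274795, plus strand) had 379, 472, 552 and 595 CPM in Tomato-positive libraries and 258, 323, 288 and 253 CPM in Tomato-negative ones. Its groups did not overlap either, and it rose 1.72-fold in the paired fit (log2 0.78 ± 0.15, adjusted p = 0.0182), with an adjusted p of 0.0847 in the unpaired fit. In the paired fit without the pair CKD523_2, CKD523_3 or CKD627_2, the adjusted p of Egr1 was 0.105, 0.136 and 0.0987, that of Nr4a1 was 0.0792, 0.124 and 0.0606, and that of Fos was 0.184, 0.207 and 0.133.

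Counted over the 10 genes, the Tomato-positive libraries stood wholly above the Tomato-negative ones for 6, namely Fos, Fosb, Jun, Junb, Egr1 and Nr4a1, where 7.13% of all tested genes did so. The Tomato-positive library was the higher in all 4 pairs for 8 of the 10, where 19.9% of all tested genes were. Jund and Atf3 were higher in 3 of the 4 pairs. The size of the difference was uneven across pairs. The median log2 ratio of the 10 genes was 0.45 in CKD627_1, 0.47 in CKD627_2, 0.84 in CKD523_2 and 0.78 in CKD523_3, while the median of all tested genes lay between -0.02 and 0.10 in the 4 pairs. For each of the 10 genes the smallest of the 4 ratios was in a CKD627 pair, 5 times in CKD627_1 and 5 times in CKD627_2. The share of all tested genes with their smallest ratio in a CKD627 pair was not counted.

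**Figure D3:**
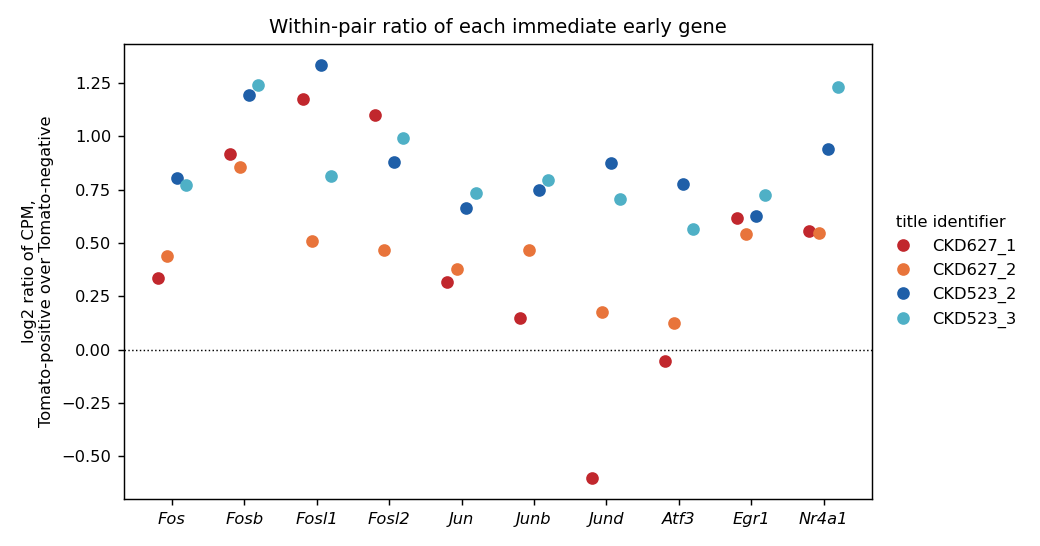
Log2 ratio of CPM, Tomato-positive over Tomato-negative (vertical axis), of each gene in each of the 4 pairs, 1 point per pair and colours by identifier. The CKD627 points (red, orange) include the lowest point of every gene, down to -0.60 for Jund in CKD627_1, and the highest point is 1.34 for Fosl1 in CKD523_2.

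Each prefix was then fitted alone, with 2 libraries per group. In CKD523, 10 of the 10 genes rose, against a background of 7.35% called higher, with log2 differences between 0.60 (Atf3, adjusted p = 0.00642) and 1.14 (Fosb, adjusted p = 0.000203). Jund rose there by 0.71 ± 0.12 (adjusted p = 0.00314). In CKD627, 1 of the 10 rose, Fosb, by 0.85 ± 0.17 (adjusted p = 0.0304), against a background of 1.06%. The others gave 0.81 ± 0.51 for Fosl1, 0.73 ± 0.22 for Fosl2, 0.54 ± 0.16 for Egr1, 0.52 ± 0.21 for Nr4a1, 0.35 ± 0.16 for Fos, 0.31 ± 0.16 for Jun, 0.26 ± 0.18 for Junb, 0.0028 ± 0.18 for Atf3 and -0.27 ± 0.22 for Jund, with adjusted p from 0.108 upwards. A call in CKD523 and not in CKD627 does not show that the prefixes differ, so the difference itself was tested as an interaction. It was negative, smaller in CKD627, for all 10 genes, where it was positive for 7238 of the 14284 tested genes. In edgeR 0 of the 10 passed, against a background of 0.014% of all tested genes. At an unadjusted p under 0.05 there were 2, near the 13.2% of all tested genes that reached it: Jund (-0.95 ± 0.27, 95% bounds -1.55 to -0.35, adjusted p = 0.230) and Atf3 (-0.56 ± 0.21, bounds -1.02 to -0.11, adjusted p = 0.303). Limma-voom called 0 of the 10 in the interaction as well. Jund passed with all genes of at least 1 count kept (-0.97, adjusted p = 0.00665).

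The prefixes also differed in the level of some of the genes, whatever the Tomato group. In a fit with prefix and Tomato group as terms, 4 of the 10 were lower in CKD627 than in CKD523, and 0 were higher, against a background of 11.4% of tested genes called lower and 9.66% called higher. These were Fosl1 (-2.13 ± 0.21, adjusted p = 1.36e-04), Fosl2 (-1.38 ± 0.13, adjusted p = 1.36e-04), Fosb (-0.81 ± 0.11, adjusted p = 7.04e-04) and Atf3 (-0.81 ± 0.14, adjusted p = 0.00207). All 4 stayed past the threshold with each library left out in turn, which kept the same identifiers in each prefix. The fit counted libraries that share an identifier as separate samples. The prefix varies only between identifiers, CKD627_1 and CKD627_2 against CKD523_2 and CKD523_3. Its p-values therefore take no account of likeness within an identifier. Fosl2 had 119 to 254 CPM in CKD627 libraries and 299 to 612 CPM in CKD523 libraries, and the prefixes did not overlap for Fosl1, Fosl2 and Atf3, as for 7.2% of all tested genes lower in CKD627. Fos had 2377 to 3303 CPM in CKD627 libraries and 1649.5 to 2883 CPM in CKD523 libraries, a log2 difference of 0.24 ± 0.11 (95% bounds -0.01 to 0.49, adjusted p = 0.165), which passed when libraries were scaled by their size only (0.39, adjusted p = 0.0317). Jun, Junb, Jund, Egr1 and Nr4a1 did not pass either, with differences between -0.31 and 0.18. The number of Fosb counts per Fos count separated the prefixes as well. Fosb had 0.748 and 0.838 counts per Fos count in the Tomato-positive and 0.499 and 0.627 in the Tomato-negative libraries of CKD627. In CKD523 it had 1.64 and 1.58 in the Tomato-positive and 1.25 and 1.14 in the Tomato-negative libraries. Cell type markers moved with the prefix as well: proximal tubule markers summed to 6349.5 to 11585 CPM in CKD627 and 17090 to 35712 CPM in CKD523, endothelial markers to 465 to 874 and 70.9 to 314 CPM, and loop of Henle markers to 5890 to 14962 and 1802 to 4285 CPM. Principal cell markers summed to 1749 to 5648 CPM in CKD627 and 217 to 1969 CPM in CKD523. Those of intercalated cells summed to 1156 to 2616 and 278 to 1451 CPM, and those of the distal tubule to 613 to 1852 and 165 to 1207 CPM. The part of these markers in the prefix differences of the 10 genes was not tested.

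**Figure D4:**
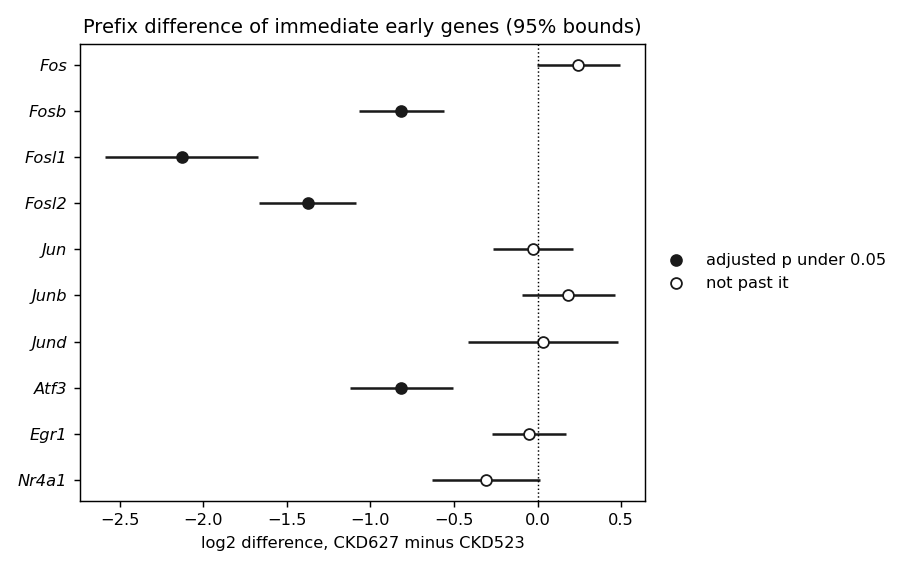
Log2 difference between prefixes of each gene, CKD627 minus CKD523 (horizontal axis), with 95% bounds, from the fit with Tomato group as a term, filled where the adjusted p was under 0.05. The 4 filled points, for Fosb, Fosl1, Fosl2 and Atf3, all lie left of 0, and Fosl1 is the farthest at -2.13.

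Levels were compared between genes per kilobase of the longest coding transcript. In Tomato-positive libraries Fos was the highest of the 10, at 1451 ± 112 CPM per kb, which put it at rank 10 of 14040 genes; in Tomato-negative libraries it was at 985 ± 235 CPM per kb and rank 31 (SD, n = 4 each). Its Tomato-positive range, 1343 to 1567 CPM per kb, lay above those of the other 9. Junb, Fosb, Jund, Jun and Atf3 followed with means of 973, 949, 920.5, 864 and 728 CPM per kb in Tomato-positive libraries, and the ranges of neighbours in this order overlapped. Egr1 came next at 542 ± 15.6 CPM per kb in Tomato-positive libraries, within the range of Atf3. Nr4a1 (196 ± 37.2), Fosl2 (64.7 ± 31.9) and Fosl1 (8.90 ± 6.51 CPM per kb) each lay below the range of the gene before. In Tomato-negative libraries the order was Fos, Jund, Junb, Jun, Atf3, Fosb, Egr1, Nr4a1, Fosl2 and Fosl1. The place of Fosb among the 10 differed by prefix: it was 5 in both Tomato-positive libraries of CKD627 (653 and 713 CPM per kb) and 2 in both of CKD523 (1249.9 and 1181 CPM per kb). In Tomato-negative libraries Fosb was at places 7 and 6 in CKD627 and 5 and 6 in CKD523.

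Other genes of the same response were read from lists by function, with their counts in the paired fit beside those of the unpaired fit. Of all tested genes the paired fit called 3.82% higher and 3.81% lower, and the unpaired fit 0.595% in either direction. These shares are the background for each list below. Of 35 other immediate early genes 15 rose and 0 fell in the paired fit, with a median of 0.51 over all 35. In the unpaired fit 1 rose, Plk2, a polo-like kinase, with an adjusted p of 0.0241. Plk2 averaged 202 ± 11.4 CPM in Tomato-positive and 90.6 ± 9.12 CPM in Tomato-negative libraries (SD, n = 4 each), a paired log2 difference of 1.12 ± 0.13 (adjusted p = 0.00280). The next by p were Ptgs2, the inducible cyclooxygenase, at 30.8 ± 10.5 CPM in Tomato-positive and 13 ± 4.98 CPM in Tomato-negative libraries (log2 1.22 ± 0.17, adjusted p = 0.00610), and Klf10, a zinc finger factor induced by TGF-beta (log2 0.84 ± 0.13, adjusted p = 0.00784). Without the pair CKD523_2, CKD523_3, CKD627_1 or CKD627_2 the paired fit called 6, 2, 19 and 4 of the 35 higher and 0 lower. Of all tested genes these fits called 1.86, 0.702, 4.6 and 1.31% higher.

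The closest relatives of Egr1 and Nr4a1, with the Egr partners Nab1 and Nab2, formed a list of 7. Egr2 and Egr3 rose in the paired fit (log2 1.09 ± 0.16, adjusted p = 0.00718, and 1.47 ± 0.31, adjusted p = 0.0270), 0 fell, and 0 of the 7 passed in the unpaired fit. Egr2 averaged 65.6 ± 42.1 CPM in Tomato-positive and 29.3 ± 18.9 CPM in Tomato-negative libraries, and Egr3 18.0 ± 9.10 and 6.89 ± 4.56 CPM (SD, n = 4 each). All 7 of these log2 differences were positive, with a median of 1.09. Neither Egr2 nor Egr3 was called without the pair CKD523_3.

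Among 13 feedback inhibitors of the MAP kinase pathway, which signals to these genes, Dusp8 and Dusp5 rose in the paired fit (log2 0.75 ± 0.14 and 0.68 ± 0.16, adjusted p = 0.0177 and 0.0405) and 0 fell. Both encode phosphatases that switch MAP kinases off. Among 18 genes of the MAP kinases and serum response factor 1 rose, Elk4, a partner of serum response factor (log2 1.12 ± 0.20, adjusted p = 0.0149), and 0 fell. This 1 of 18, or 5.56%, is near the 3.82% of all tested genes called higher. Of 15 tested genes of other AP-1, ATF and CREB-type factors 0 rose and 1 fell, and their median was 0.07. In the unpaired fit 0 genes of these 3 lists passed. Without the pairs CKD523_2, CKD523_3 or CKD627_2 the paired fit called 0 of the 13 feedback genes, and 1, 0 and 0 of the 18 MAP kinase and serum response factor genes higher.

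Of 17 tested genes known as AP-1 targets 2 rose and 1 fell in the paired fit, against 3.82 and 3.81% of all tested genes. The median of the 17 was 0.63, and 0 passed in the unpaired fit. Lif, a cytokine, rose (313 ± 150 CPM in Tomato-positive and 129 ± 56.8 CPM in Tomato-negative libraries, SD, n = 4 each; log2 1.18 ± 0.16, adjusted p = 0.00525), as did Hbegf, a ligand of the EGF receptor (log2 0.63 ± 0.15, adjusted p = 0.0396). Plau, the urokinase-type plasminogen activator, fell (467 ± 37.0 CPM in Tomato-positive and 816 ± 195 CPM in Tomato-negative libraries, SD, n = 4 each; log2 -0.82 ± 0.16, adjusted p = 0.0182). Without 1 pair the counts were between 1 and 3 higher and between 0 and 1 lower.

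Heat-shock genes were listed because they answer to handling and proteotoxic stress. Of 14, 3 rose and 1 fell in the paired fit, against 3.82 and 3.81% of all tested genes. The median of the 14 was 0.10, and 0 passed in the unpaired fit. Hspa1b, Dnajb1 and Hspa1a rose (log2 0.90 ± 0.17, 0.74 ± 0.15 and 0.67 ± 0.17, adjusted p = 0.0161, 0.0227 and 0.0485), and Hspd1, a mitochondrial chaperone, fell (-0.58 ± 0.14, adjusted p = 0.0415). Hspa1a and Hspa1b are near-identical copies, so their separate counts are uncertain. Between prefixes 10 of the 14 were lower in CKD627 and 0 higher, against 11.4 and 9.66% of all tested genes. Without the pairs CKD523_2, CKD523_3 or CKD627_2 the paired fit called 0 of the 14.

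**Figure D5:**
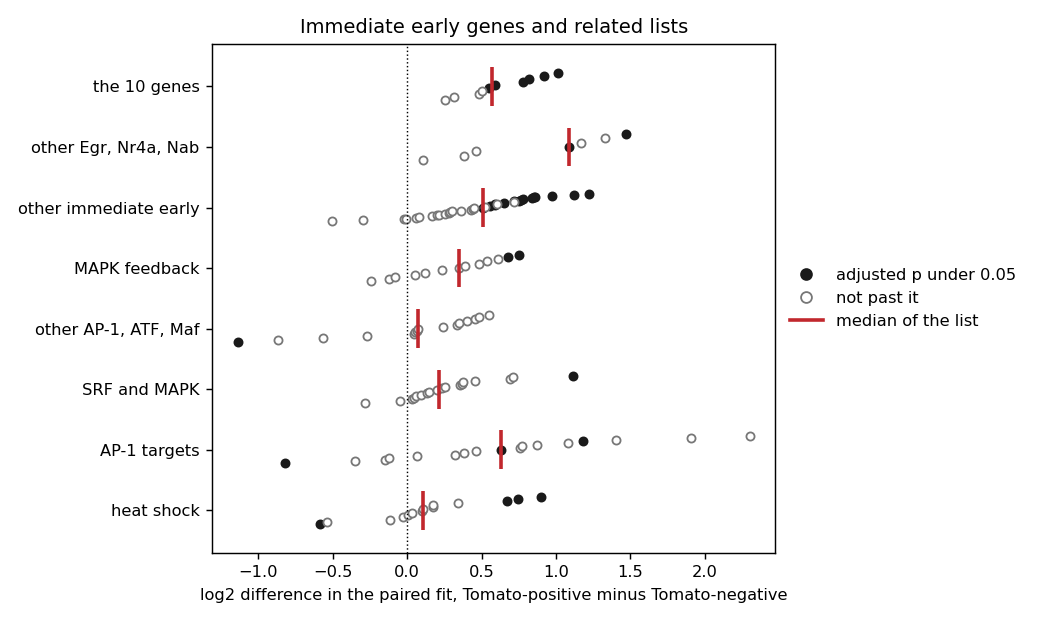
Log2 difference in the paired fit, Tomato-positive minus Tomato-negative (horizontal axis), of each tested gene of the 10 and of 7 related lists (rows), filled where the adjusted p was under 0.05, with the median of each list as a red bar. The bars of the 10 genes (0.57), the other Egr, Nr4a and Nab genes (1.09), the other immediate early genes (0.51) and the AP-1 targets (0.63) lie farther right than that of the heat-shock genes (0.10). The bars of the MAPK feedback genes (0.35) and of the SRF and MAPK genes (0.21) lie between these. That of the other AP-1, ATF and Maf genes (0.07) lies left of the heat-shock bar.

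Markers of nephron segments moved with the Tomato groups too. In the paired fit all 8 principal cell markers rose and 0 fell. There 10 of 21 proximal tubule, 5 of 7 loop of Henle, 3 of 6 distal tubule and 3 of 7 intercalated cell markers fell, and 0 of these rose. Of all tested genes that fit called 3.82% higher and 3.81% lower. Leaving out CKD523_2, CKD523_3, CKD627_1 or CKD627_2 gave 6, 6, 7 and 6 of the 8 principal cell markers higher. It gave 6, 5, 10 and 9 of the 21 proximal tubule and 3, 3, 5 and 3 of the 7 loop of Henle markers lower. Aqp2, the water channel of principal cells, was at 1706 ± 1075 CPM in Tomato-positive and 455 ± 479.9 CPM in Tomato-negative libraries (SD, n = 4 each). The part of these shifts in the differences of the 10 genes was not tested. Macrophage markers summed to 115 to 133 CPM in Tomato-positive and 87.7 to 156 CPM in Tomato-negative libraries, with 1 of 9 tested markers risen and 0 fallen. Endothelial markers summed to 70.9 to 874 and 150 to 766 CPM, and 0 of 10 changed. Lymphocyte markers summed to at most 10.6 CPM and neutrophil markers to at most 2.74 CPM in any library, with Cd3d and Cd3e at 0 counts in all 8. The 10 genes themselves summed to 15502 to 19242 CPM in Tomato-positive and 10621 to 12508 CPM in Tomato-negative libraries.

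The profile of each gene over the 8 libraries was compared with that of 13545 genes, as the root mean square difference of log2 CPM after each gene was centred on its own mean. Fos and Junb were each other's nearest gene, at 0.07 on the log2 scale. Egr1 and Jun were close too: Jun stood at place 7 among the genes nearest to Egr1, and Egr1 at place 8 among those nearest to Jun. The nearest genes of all were Pim1 to Fosb (0.11), Atp6v0c to Fosl1 (0.19), Arl5b to Fosl2 (0.17), Pabpc1 to Jun (0.08), Npdc1 to Jund (0.12), Mafk to Atf3 (0.05), Ehf to Egr1 (0.07) and Fam20c to Nr4a1 (0.09). Fosl1 had Egr2 among its 3 nearest genes and Fosl2 at place 8, and Dnajb1 was among the 3 genes nearest to Fosl2. The closest of the 10 to Atf3 was Nr4a1 (0.36, at place 848), and the closest to Jund was Junb (0.22, at place 204). This likeness is a description over 8 libraries that share their group and prefix structure.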

How the data were processed

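RNA was taken up with a Norgen kit for single cells and made into libraries with NEBNext Ultra, per the labels' protocols. The authors deposited raw counts per gene symbol, aligned with subread, per the file headers; build mm10, edgeR 3.32.1 and limma 3.46.0 come from the submitters' processing notes. The sources used here do not give the counter, annotation, strand and multi-mapping settings. Positions are from GENCODE M21 (GRCm38).

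Genes were kept with filterByExpr (minimum count 10 in 4 libraries, 15 in all). Fits used edgeR 4.0.16 in R 4.3.3 (TMM, quasi-likelihood test, 2-sided, Benjamini-Hochberg over all tested genes) and were tested on simulated data; DESeq2 1.42.0, limma 3.58.1, other scalings and filters, and leaving out libraries or pairs were alternatives. SE is the difference over the root of F. After removal of group means, libraries sharing an identifier correlated at 0.464, 0.321, 0.330 and 0.465 and those of the same prefix at 0.296 to 0.467, so the paired fit is given beside the unpaired one. Libraries of 1 group were further apart than counting error allows (chi-square over its degrees of freedom 16.2 to 202), so each counted as 1 sample. The genes, lists and tests were chosen with earlier results of these data known. Named genes are all 10, with, per list, up to 3 per direction with the smallest paired p past the threshold, and the nearest genes in profile; 1 gene that meets the rule is not reported here.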

Additional observations from a re-analysis of the deposited data

Results flagged for a closer look

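Egr1 in the Tomato-positive library CKD523_2, at 2325 CPM, stood apart from the other 3 Tomato-positive libraries, which lay at 2456, 2465 and 2472 CPM. It was the only value to do so by Dixon's criterion for 4 samples among 20 groups of 4 checked, and chance flags about 1 in 20. It stayed above the highest Tomato-negative library, at 1697 CPM.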

How the results depend on the processing

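The count of the 10 genes called between Tomato groups was 0 in the unpaired fit, 6 with the replicate block, 8 with prefix as a covariate, 10 in CKD523 alone, 1 in CKD627 alone, 6 with DESeq2 unpaired, 8 with DESeq2 and the block and 7 with limma-voom and the block. Over all genes these were 85, 1089, 1527, 2231, 303, 1000, 2026 and 1389, and 45 with all genes of at least 1 count. Leaving out 1 library or 1 pair gave 1 to 26 genes in all, and 0 of the 10, in the unpaired fit. In the paired fit leaving out a pair gave 1 to 7 of the 10 and 203 to 1319 in all. The interaction called 1 of the 10 (Jund) with all genes of at least 1 count, and 0 to 1 with a library left out (Jund without Tomato-negative CKD627_2). The sign of Jund turned in CKD627 alone (-0.27). With a library left out the interaction ranged from -0.33 to 0.0089 for Fosl1, -0.32 to 0.16 for Fosl2 and -0.062 to 0.0061 for Egr1, and the prefix difference from -0.072 to 0.013 for Jun and -0.18 to 0.19 for Jund. With library size only, the prefix difference was 0.12 for Jun and 0.096 for Egr1. The cause was not tested. Other scalings, filters and dispersions of the paired fit, DESeq2 for the prefix and the list counts without a pair were chosen after seeing the data. Intervals rest on the spread between 4 libraries a group in the unpaired fit, and on the spread left after the identifier block in the paired fit. In the fits of each prefix alone they rest on 2 libraries per group. Depth was at least 51 counts per value.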
